A study of Mus musculus with 3 samples.

Results

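Trim71, Lin28a, Lin28b, Hmga2, Igf2bp1, Igf2bp2 and Igf2bp3 are genes of developmental timing that are regulated by the let-7 microRNAs. They were taken by gene name, with every non-control probe, because Trim71 was higher in the mutant on every array. The set holds 7 genes and 11 probes of 30119 gene names and 39429 probes on the array, and 6 of these genes were among the 19665 that could be tested. Since the ratio of mutant over wild type chose the set, the members' ratios are given as a description, and no test result is read for them.

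The samples were mouse embryoid bodies, clumps of embryonic stem cells that differentiate in culture. The mutant, Dido3deltaCT+HADidoNT, makes a Dido3 protein truncated at its C-terminus and overexpresses the N-terminal region that the products of the Dido gene share, which contains a PHD domain. It was compared with the wild-type control. Both were cultured side by side for 10 days in suspension on low-attachment plastic, without LIF, a cytokine used to keep such stem cells undifferentiated. There were 3 biological replicates of each genotype on 3 two-colour arrays, and each array held 1 mutant and 1 wild-type RNA. The mutant RNA was labelled with Cy3 on arrays 1 and 3 and with Cy5 on array 2. The parental cell line, the number of clones behind each genotype and the promoter of the overexpressed region were not stated in the labels.

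The let-7 microRNAs accumulate as embryonic cells differentiate and bind sites in the mRNAs of these genes. Lin28a and Lin28b are RNA-binding proteins that hold back let-7 by binding its precursors, so that Lin28 and let-7 oppose each other. Trim71 is a ubiquitin ligase and mRNA repressor of early embryonic cells, Hmga2 is a DNA-bending chromatin protein of embryonic and mesenchymal cells, and the Igf2bp proteins bind mRNAs and affect their stability, transport and translation. In mouse development these genes are mostly high in the embryo and low in adult tissues.

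The feature that ties the set together is the let-7 seed, bases 2 to 8 of the microRNA, which is shown in capitals in mature sequences from RefSeq (GRCm38.p6). This seed was found in 11 mature mouse microRNAs, of which 9 carry a let-7 name, and the sequences printed here show how they differ outside it. A final line gives a 30-base window inside the brighter Hmga2 probe (mm9, chr10:119798739-119798768, minus strand), in which the capitals mark the 10 bases complementary to bases 2 to 11 of let-7a.
mmu-let-7a-5p: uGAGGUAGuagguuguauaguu
mmu-let-7b-5p: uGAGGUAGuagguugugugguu
mmu-let-7d-5p: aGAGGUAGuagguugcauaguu
mmu-let-7e-5p: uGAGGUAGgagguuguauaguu
mmu-let-7g-5p: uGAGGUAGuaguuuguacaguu
mmu-miR-98-5p: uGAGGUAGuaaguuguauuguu
Hmga2 window: atcaaaacacaCTACTACCTCttaagtccc
The match to the seed, CTACCTC, was present in 1 of the 11 member probes. On the transcript strand it was present in 150 of the 39429 probes of 60 bases (0.380%), and on either strand in 228 (0.578%). A match is a description of these letters only, and the mature microRNAs themselves were not analysed here.

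All 11 member probes were well above background in both genotypes on all 3 arrays, none was saturated, and each had 1 spot per array. No member therefore entered the fit through 1 genotype alone. Igf2bp3 was not in the fit because its spot on array 3 was marked as an outlier by the scanner software. Across the series, median spot intensity was 192 to 288 units in mutant channels and 150 to 210 units in wild-type channels, and 66.5% to 74.8% of mutant spots and 64.8% to 76.0% of wild-type spots were well above background. Across genes, log2 ratios of arrays 1 and 3 correlated with r = 0.794, those of arrays 1 and 2 with r = 0.377 and those of arrays 2 and 3 with r = 0.193. Array 2 differs from the others in both its replicate and its dye orientation, and these cannot be told apart. The altered gene, Dido1, had 4 usable probes with mean log2 ratios of -3.60 ± 0.17, -0.54 ± 0.93, 2.35 ± 0.40 and 3.03 ± 0.34 (SD, n = 3), so its probes differed in both directions, and which of them lie in the altered region was not stated in the labels.

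Trim71 was higher in the mutant on every array and at both of its probes. The brighter probe (mm9, chr9:114420415-114420474, minus strand) read 39076, 28525 and 37012 units in the mutant on arrays 1, 2 and 3, against 5481, 3021 and 5857 units in wild type. The lowest mutant spot was above the highest wild-type spot, so the genotypes did not overlap. After background correction and normalization, the log2 ratios of mutant over wild type were 2.97, 3.01 and 2.54, with a mean of 2.84 ± 0.26 (SD, n = 3), a 7.15-fold difference. These are bulk samples, so a larger share of cells that express a gene and more RNA per cell cannot be told apart.

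The second Trim71 probe (mm9, chr9:114421669-114421728, minus strand), which starts 1254 bases from the first, read 1124, 826 and 1311 units in the mutant, against 109, 167 and 150 units in wild type. Its log2 ratios were 3.13, 2.15 and 2.78, with a mean of 2.69 ± 0.50 (SD, n = 3), or 6.43-fold, and its genotypes did not overlap either. The 2 probes differed by a log2 of 0.15 ± 0.62 (SD, n = 3), which is within the spread between arrays. The value of the dimmer probe on array 2 depends on the background step, since it was 0.49 when the local background of that array was not limited to 100 units, while the brighter probe was still 2.75 there.

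**Figure D1:**
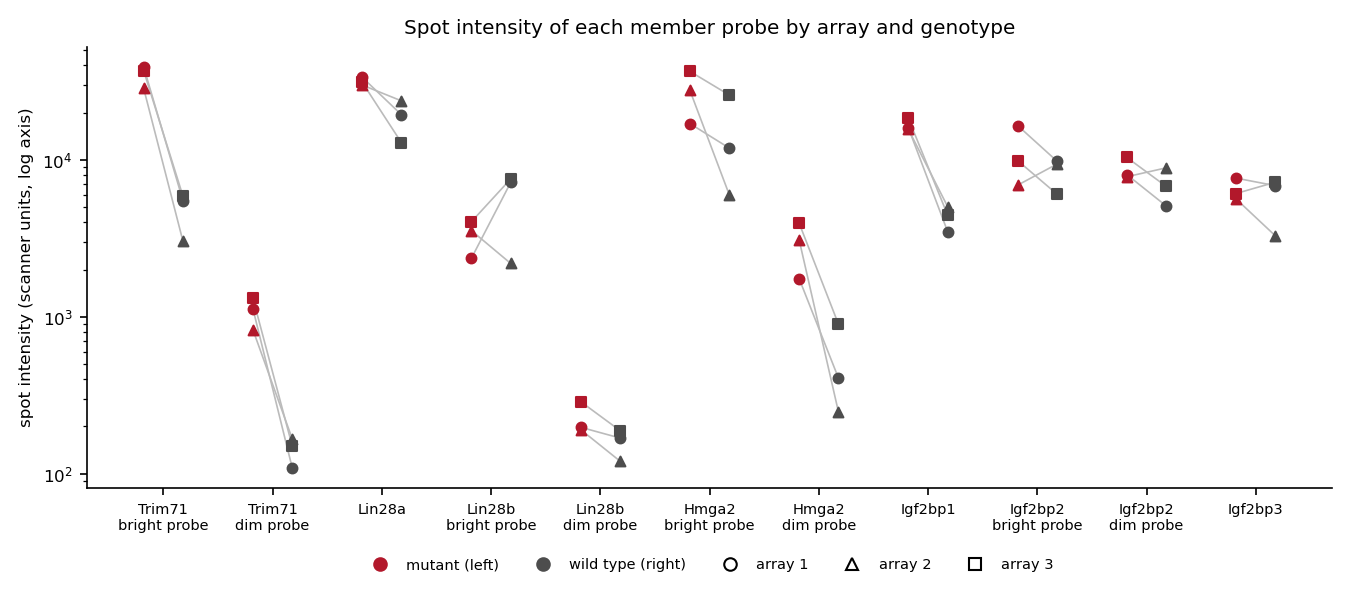
Spot intensity in scanner units, on a log axis, of each of the 11 member probes. Mutant points (red) stand left of wild-type points (grey), marker shape gives the array, and lines join the 2 RNAs of an array; both Trim71 probes, the Igf2bp1 probe and the dimmer Hmga2 probe show wide gaps between the genotypes. Levels of different probes are not comparable.

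The Lin28 genes, the let-7 inhibitors, did not share the pattern of Trim71. Lin28a (mm9, chr4:133559245-133559304, minus strand) read 33643, 30011 and 31270 units in the mutant, against 19386, 23780 and 12857 units in wild type. The spot intensities of the genotypes did not overlap, yet the normalized log2 ratios were 1.06, -0.05 and 1.24, so the difference was near 0 on array 2. The mean was 0.75 ± 0.70 (SD, n = 3).

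Lin28b, the second Lin28 gene, gave 2 unlike readings from probes that start 43.9 kb apart. The brighter probe (mm9, chr10:45096468-45096527, minus strand) read 2360, 3545 and 4036 units in the mutant, against 7189, 2186 and 7565 units in wild type. It was lower in the mutant on arrays 1 and 3 and higher on array 2, with log2 ratios of -1.69, 0.55 and -1.15 and a mean of -0.76 ± 1.17 (SD, n = 3). The dimmer probe (mm9, chr10:45140412-45140471, minus strand) read 198, 191 and 288 units in the mutant, against 169, 120 and 188 units in wild type. Its spot intensities did not overlap between the genotypes, but its log2 ratios were small, at 0.0019, 0.65 and 0.15, with a mean of 0.27 ± 0.34 (SD, n = 3). The probes differed by a log2 of -1.03 ± 0.83 (SD, n = 3), brighter minus dimmer, so Lin28b had no single direction in these data.

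Hmga2, the chromatin protein, was higher in the mutant on every array at both of its probes, by unlike amounts. The brighter probe (mm9, chr10:119798739-119798798, minus strand), which holds the let-7 seed match shown above, read 17044, 27759 and 36676 units in the mutant, against 11903, 6009 and 25926 units in wild type. Mutant and wild-type intensities overlapped across arrays, although the mutant was the brighter RNA within each array. The log2 ratios were 0.64, 1.93 and 0.56, with a mean of 1.04 ± 0.77 (SD, n = 3).

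The dimmer Hmga2 probe (mm9, chr10:119800621-119800680, minus strand), which starts 1882 bases from the brighter one, read 1751, 3094 and 3953 units in the mutant, against 407, 248 and 897 units in wild type. Its genotypes did not overlap, and its log2 ratios were 2.00, 3.51 and 1.91, with a mean of 2.47 ± 0.90 (SD, n = 3). The probes differed by a log2 of -1.35, -1.58 and -1.35 on the 3 arrays, brighter minus dimmer, a mean of -1.43 ± 0.13 (SD, n = 3). With the local background of array 2 not limited, the dimmer probe had 1.63 on that array, below its values on arrays 1 and 3, the brighter probe had 1.82, and the gap there was 0.19 in place of -1.58. The order of the arrays at the dimmer probe and the gap on array 2 thus depend on that step. A probe for the pseudogene Hmga2-ps1 had a log2 ratio of 0.23 ± 0.30 (SD, n = 3).

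Among the mRNA-binding Igf2bp proteins, Igf2bp1 was the member with a difference on every array. Its probe (mm9, chr11:95824526-95824585, minus strand) read 16024, 15662 and 18400 units in the mutant, against 3485, 5029 and 4439 units in wild type. The genotypes did not overlap, and each varied little over its replicates. The log2 ratios were 2.18, 1.41 and 1.84, with a mean of 1.81 ± 0.39 (SD, n = 3), a 3.51-fold difference.

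Igf2bp2 was measured by 2 probes that start 322 bases apart and behaved alike. The brighter probe (mm9, chr16:22059260-22059319, minus strand) read 16568, 6901 and 9906 units in the mutant, against 9824, 9403 and 6054 units in wild type, and the genotypes overlapped. Its log2 ratios were 0.85, -0.66 and 0.49, a mean of 0.23 ± 0.79 (SD, n = 3). The dimmer probe (mm9, chr16:22059582-22059641, minus strand) read 8060, 7809 and 10363 units in the mutant, against 5086, 8898 and 6780 units in wild type, and had log2 ratios of 0.62, -0.41 and 0.39, a mean of 0.20 ± 0.54 (SD, n = 3). Both Igf2bp2 probes were higher in the mutant on arrays 1 and 3 and lower on array 2, and they differed from each other by a log2 of 0.02 ± 0.25 (SD, n = 3).

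Igf2bp3 (mm9, chr6:49035710-49035769, minus strand) read 7651, 5636 and 6106 units in the mutant, against 6848, 3278 and 7210 units in wild type, with overlapping genotypes. Its log2 ratios were 0.14 on array 1 and 0.62 on array 2, and the outlier spot on array 3 gave -0.47. Without that spot the mean was 0.38 ± 0.34 (SD, n = 2), so the 3 Igf2bp genes ranged from a difference of 3.51-fold in Igf2bp1 to means smaller than or near their SD in the other two.

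**Figure D2:**
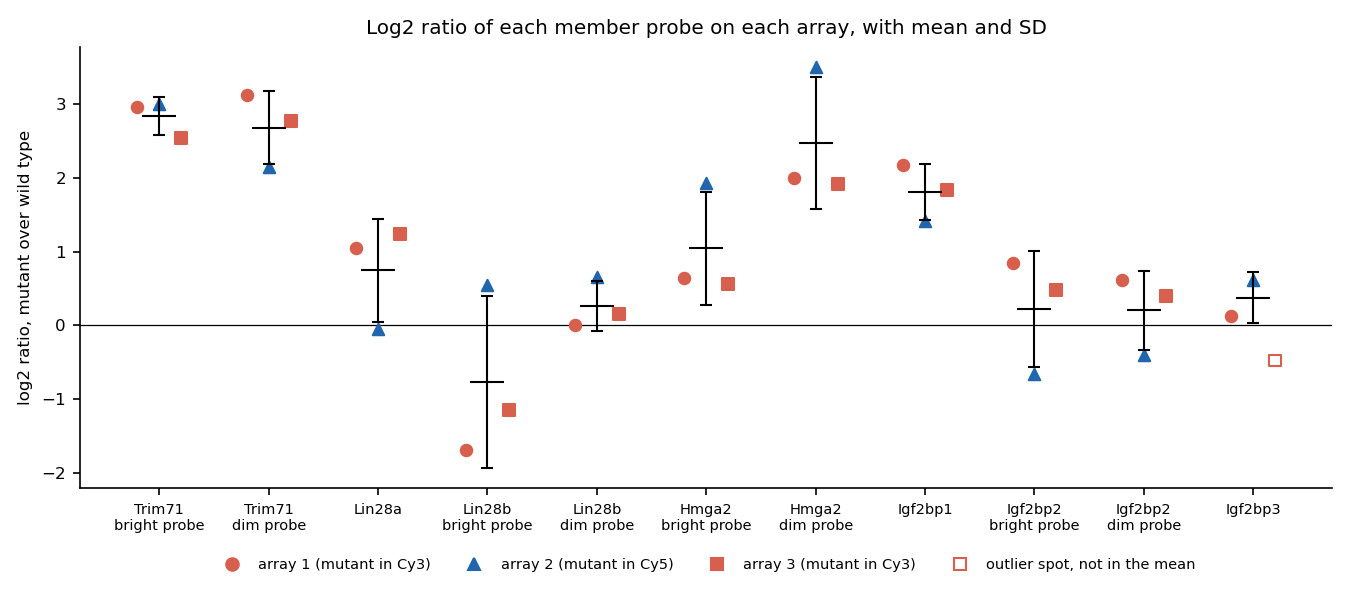
Log2 ratio of mutant over wild type of each member probe on each array (points; red for arrays 1 and 3 with mutant in Cy3, blue for array 2 with mutant in Cy5), with the mean and SD as a bar. Trim71, Igf2bp1 and both Hmga2 probes lie above 0 on all 3 arrays, while Lin28a, the brighter Lin28b probe and Igf2bp2 have array 2 on the other side of 0 from arrays 1 and 3; the open square is the Igf2bp3 outlier spot.

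In the ranks and counts of genes that follow, each gene stands by its brightest usable probe. The dimmer Hmga2 and Lin28b probes had means of 2.47 and 0.27, so the places of these genes depend on the probe. Set in order of mean log2 ratio among the 19665 genes tested, Trim71 was at rank 113 from the highest, Igf2bp1 at 409 and Hmga2 at 1243. Lin28a was at 2104, Igf2bp2 at 6070 and Lin28b at 18284. The ranges of mean ± SD of Trim71 and Igf2bp1 did not overlap, while neighbours from Igf2bp1 downwards in this order had ranges that did. By array, Trim71 was at ranks 179, 49 and 201 and Igf2bp1 at 464, 707 and 551, whereas Hmga2 was at 4066, 315 and 4556 and Lin28b at 19179, 3489 and 18593. The 6 tested members had a median log2 ratio of 0.90, beside -0.01 over all genes tested. Of the 6, 3 (Trim71, Igf2bp1 and Hmga2) were above 0 on all arrays, as were 22.5% of all genes. At least 2-fold higher on all arrays were 2 of the 6 (Trim71 and Igf2bp1), as were 3.1% of all genes, and none was at least 2-fold lower on all arrays, as were 1.08%. The same 2 were among the genes called higher by limma at an adjusted p of 0.05, as were 1.27% of all genes, and no member was called lower, as were 0.386%. Limma called no gene at all with the local background of array 2 not limited, with the authors' values or with no filter on dim probes. It also called none without array 1 or without array 3. Of the 10 usable member probes, 6 were above 0 on all arrays, beside 23.0% of all probes, 4 were at least 2-fold higher on all arrays, beside 3.13%, and 6 had every mutant spot above every wild-type spot, beside 15.5%. The members were chosen on this contrast, so nothing is read from these counts.

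Array 2, with the mutant in Cy5, divides the members, and its dye orientation and its replicate cannot be told apart. After normalization, Lin28a and Igf2bp2 had ratios toward the Cy3 channel on all 3 arrays, whichever genotype it held, as had 19.1% of all genes tested. For Lin28a this rests on a log2 ratio of -0.05 on array 2, where its deposited Cy5 spot was the brighter and the authors' deposited table gives 0. Lin28b, at its brighter probe, had ratios toward Cy5 on all arrays, as had 19.3%. Giving the 2 orientations equal weight, as an alternative added after seeing the data, left a log2 ratio of 2.88 for Trim71, 1.71 for Igf2bp1, 1.27 for Hmga2, 0.55 for Lin28a, 0.0054 for Igf2bp2 and -0.44 for Lin28b. Trim71 and Igf2bp1 thus had nearly the same value under both weightings, while that of Igf2bp2 was close to 0.

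**Figure D3:**
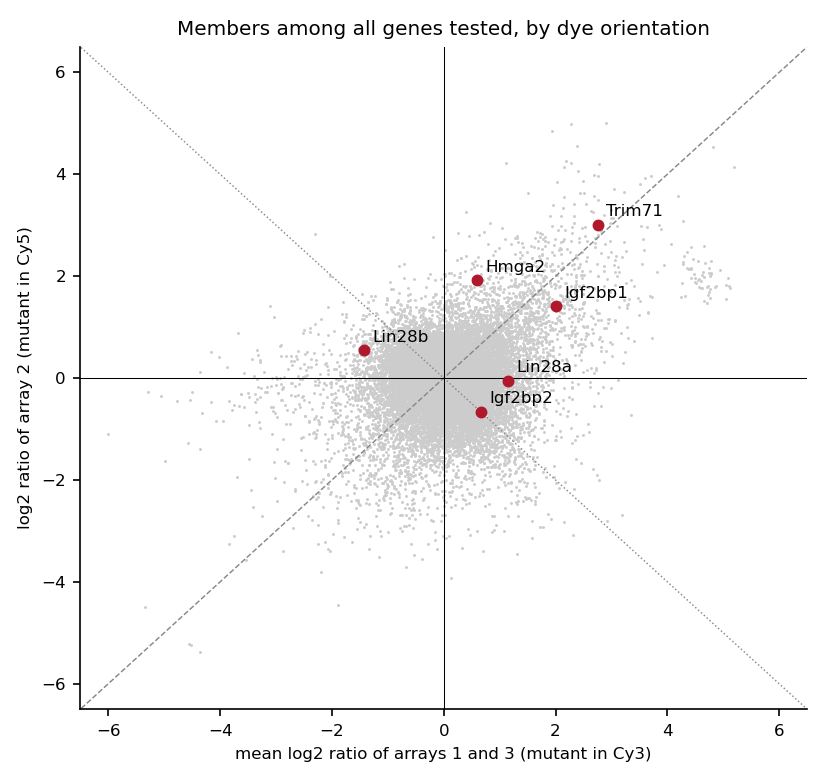
Log2 ratio of mutant over wild type on array 2 (mutant in Cy5) against the mean of arrays 1 and 3 (mutant in Cy3) for all 19665 genes tested (grey) and the 6 tested members (red). The dashed line marks equal ratios and the dotted line equal ratios of opposite sign; Trim71 and Igf2bp1 lie near the dashed line, Igf2bp2 on the dotted line, and Lin28a close to 0 on array 2.

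The genes with ratios nearest to those of a member were found by the root mean square difference of their log2 ratios over the 3 arrays. Nearest to Trim71 were the transcript named TC1657741 in the files (0.161), Car15 (0.206), a carbonic anhydrase, Lpin2 (0.215), a phosphatidate phosphatase, Mmp14 (0.221), a membrane-bound matrix metalloproteinase, and Hand2 (0.223), a transcription factor of heart and limb. Hand2 read 4049, 6933 and 6986 units in the mutant, against 370, 709 and 934 units in wild type, and had log2 ratios of 3.31, 3.14 and 2.66. Mmp14 read 1457, 2622 and 3001 units in the mutant, against 159, 377 and 479 units in wild type, with log2 ratios of 3.01, 2.65 and 2.41. Nearest to Igf2bp1 were Zcchc7 (0.0371), Mylip (0.0467), a ubiquitin ligase, and Srpk2 (0.0708), a kinase of splicing factors. Zcchc7 had a further probe, measured on 2 arrays, at 0.02, and Lpin2 a dim one at 0.29, so these likenesses hold for 1 probe. Mylip had a second usable probe at a mean log2 ratio of 1.53 ± 0.56, beside 1.80 ± 0.33 at the first (SD, n = 3). Nearest to Hmga2, with array 2 highest, were Unc5c (0.0373), a netrin receptor, Fstl1 (0.0802) and Emilin1 (0.136), which encode secreted proteins. Nearest to Lin28a, with array 2 near 0, were Prkar1b (0.0173), Tnfaip8 (0.0472) and Lrrfip2 (0.0668). Nearest to the brighter Lin28b probe were Gm8225 (0.0915), Nectin1 (0.117) and Pnp (0.119), and nearest to Igf2bp2 were Arel1 (0.0273), 1 probe with no gene name (0.0385) and Vps35 (0.0454). With 3 arrays and many genes, such closeness over 3 values is a description of these arrays.

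The other genes of the pathway were followed in 6 lists, of which 71 of 81 listed genes were tested. Of the 71, 3 rose and none fell by limma with Benjamini-Hochberg adjustment over all genes, which is 4.23%, beside 1.65% of all genes tested. An unadjusted p under 0.05 was found for 12 of the 71, or 16.9%, beside 19.9% of all genes, the share against which the unadjusted counts of the lists are to be read. All 3 are mRNAs or RNAs bound by Igf2bp proteins.

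Of the 7 RNAs on the list bound by Igf2bp proteins, 3 were called higher, beside 1.27% of all genes tested. The median log2 ratio of all 7 was 2.00. H19, the imprinted noncoding RNA next to Igf2, read 200684, 88134 and 194706 units in the mutant, against 37348, 5258 and 27184 units in wild type, and rose by a log2 of 3.27 ± 0.39 (SD, n = 3, adjusted p = 0.0354). Actb, encoding beta-actin, whose mRNA is carried by the chicken counterpart of Igf2bp1, read 87434, 95875 and 166813 units in the mutant, against 20403, 8777 and 45476 units in wild type, and rose by a log2 of 2.58 ± 0.43 (SD, n = 3, adjusted p = 0.0361). Cd44, a hyaluronan receptor, read 1652, 1252 and 1646 units in the mutant, against 339, 388 and 273 units in wild type, and rose by a log2 of 2.00 ± 0.42 (SD, n = 3, adjusted p = 0.0450). In these 3 genes no wild-type spot reached the lowest mutant spot, as at 15.5% of all usable probes. They are given because they were called higher, so nothing further is read from this. The sizes depend on the probe, since a second, dim H19 probe gave 0.98 ± 0.28 and the other 3 Cd44 probes gave 0.48 to 0.70. Whether the Actb probe also binds other actin transcripts was not tested.

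Igf2, the growth factor gene that gave the Igf2bp proteins their name, had log2 ratios of 3.07, 2.42 and 0.87 and a mean of 2.12 ± 1.13, and did not pass (SD, n = 3, adjusted p = 0.0971). Btrc and Mapk4 had means of -0.11 and -0.0088 and did not pass either. With the local background of array 2 not limited, with the authors' values, with no filter on dim probes, or without array 1 or array 3, limma called none of the 71 genes, and 6 to 15 had an unadjusted p under 0.05. Cd44 also lost its call with the mean of a gene's probes, and Actb with median centring without loess. Without array 2, which left the 2 arrays of 1 dye orientation, it called 21.

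**Figure D4:**
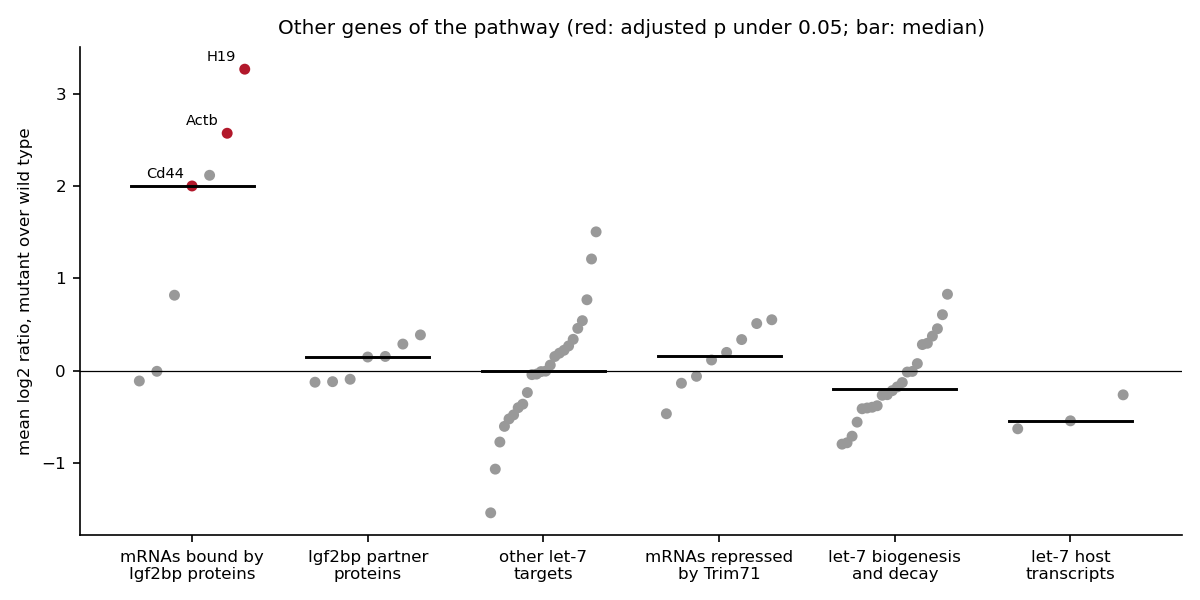
Mean log2 ratio of mutant over wild type for each tested gene of 6 pathway lists (points, ordered within each list; red for an adjusted p under 0.05), with the list's median as a black bar. H19, Actb and Cd44 are the called genes, and the medians of the let-7 target and biogenesis lists lie near 0.

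Among 24 tested let-7 target genes outside the set, none passed, 5 had an unadjusted p under 0.05, and the median log2 ratio was -0.0094, beside -0.01 over all genes. Irs2, an insulin receptor adaptor, read 3879, 3282 and 4875 units in the mutant, against 1322, 766 and 1907 units in wild type, a log2 ratio of 1.51 ± 0.42 (SD, n = 3, adjusted p = 0.0594). Tgfbr1, a receptor of transforming growth factor beta, had 1.21 ± 0.23 (SD, n = 3, adjusted p = 0.0622), while its second usable probe gave 0.16 ± 0.48. Nras, a small GTPase, had -0.78 ± 0.18 (SD, n = 3, adjusted p = 0.123), and its second usable probe gave -0.12 ± 0.50. The list as a whole thus held members on both sides of 0, from -1.55 in Ccnd1 to 1.51 in Irs2, and 7 of its 24 genes had normalized ratios toward 1 dye on all arrays.

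The 22 genes of let-7 biogenesis and decay were all tested, and none passed, with 2 at an unadjusted p under 0.05 and a median log2 ratio of -0.20. Ago4, an Argonaute protein, had 0.83 ± 0.62 (SD, n = 3, adjusted p = 0.221), and its second probe gave -0.50 ± 0.60. Dgcr8, the partner of the nuclear processing enzyme Drosha, had -0.71 ± 0.47 (SD, n = 3, adjusted p = 0.222), and Syncrip, an RNA-binding protein, had -0.56 ± 0.32 (SD, n = 3, adjusted p = 0.254). Of these 22 genes, 14 had normalized ratios toward 1 dye on all arrays, beside 38.4% of all genes tested.

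Of 8 mRNAs that Trim71 represses in mouse or human cells, none passed, 1 had an unadjusted p under 0.05, and the median log2 ratio was 0.16. Cdkn1a, the cell cycle inhibitor p21, read 6398, 14365 and 10008 units in the mutant, against 4758, 7965 and 5196 units in wild type at its brightest probe, a log2 ratio of 0.55 ± 0.20 (SD, n = 3, adjusted p = 0.219). Its other 2 usable probes gave 2.59 ± 0.26 and 1.66 ± 0.25 (SD, n = 3), so the Cdkn1a probes shared a direction and differed in size. With the mean of a gene's probes in place of the brightest, Cdkn1a was called and Cd44 was not. Mbnl1, a splicing regulator, and Rbl2, a retinoblastoma-like protein, had mean log2 ratios of 0.51 and -0.47 and did not pass.

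Of 7 tested partner proteins of Igf2bp, none passed and none had an unadjusted p under 0.05, with a median log2 ratio of 0.15. The mean log2 ratio was 0.39 for Dhx9, an RNA helicase, 0.29 for Stau1, an mRNA transport protein, and 0.15 for Fmr1, a translation regulator. Dimmer usable probes of Fmr1 gave 1.17 ± 0.59 and 0.64 ± 0.32 (SD, n = 3) and were above 0 on all arrays, so its value depends on the probe. Of 10 let-7 host transcripts listed, 3 were tested and none passed, also at an unadjusted p under 0.05, with log2 ratios of -0.55 for Wdr82, -0.26 for Huwe1 and -0.63 for Mir99ahg.

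Markers of several cell types differed between mutant and wild-type embryoid bodies beside these genes. The sums given for them add intensities before normalization, over probes whose levels are not comparable. Bright probes therefore weigh most, and the sums do not measure the amount of a cell type. The visceral endoderm marker Ctsh alone read 147747, 113823 and 121295 units in the mutant, against 51806, 22390 and 44876 units in wild type. Summed over 8 visceral endoderm and yolk sac markers, intensity over background was 483310 to 505692 units in the mutant, against 89106 to 158965 units in wild type. Of these markers 7 were higher on all arrays and 2 were called (Ctsh, 1.88 ± 0.18, adjusted p = 0.0413, and Ttr, 2.59 ± 0.69, adjusted p = 0.0459). The 6 cardiac muscle markers summed to 10612 to 86966 units in the mutant, against 2697 to 10051 units in wild type. All 6 were higher on every array, and 1 was called (Tnnt2, 3.16 ± 0.69, adjusted p = 0.0407). The 5 tested mesenchyme markers summed to 91399 to 149889 units in the mutant, against 19858 to 49663 units in wild type, with 4 higher on all arrays and 2 called (Acta2, 2.36 ± 0.14, adjusted p = 0.0354, and Fn1, 1.79 ± 0.28, adjusted p = 0.0435). All SDs are over 3 arrays, and the 5 alternatives that left no pathway gene called left none of these markers called. Of all genes tested, 22.5% were higher on all arrays and 1.27% were called higher. The marker lists were chosen with earlier results of these data known.

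Markers of undifferentiated cells had mixed directions over the arrays. The 10 pluripotent cell markers summed to 24553, 47368 and 237213 units in the mutant on arrays 1, 2 and 3, against 83049, 235085 and 113364 units in wild type. Their median log2 ratio was -2.21 and -1.81 on arrays 1 and 2 and 0.88 on array 3. Trim71, whose rise on every array chose the set, was between 2.54 and 3.01 at its brighter probe. A relation between Trim71 and these markers was not tested. Among the 10 markers, Tfcp2l1 had log2 ratios of 2.69, -0.04 and 3.55, with a second usable probe at 4.32, 2.97 and 4.91. Nanog, named after its values were seen, had 0.73, 0.02 and 0.02. Sox2 was lower on all arrays, at -3.21, -1.62 and -0.90. None of the 10 passed by limma, and 2 had an unadjusted p under 0.05. The 5 primed epiblast and 6 primordial germ cell markers had median log2 ratios of -1.01 and -0.72, none passed, and 3 and 4 had an unadjusted p under 0.05.

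The 6 neural progenitor markers summed to 1342 to 2719 units in the mutant, against 2299 to 38514 units in wild type. Their median log2 ratio was -3.99 on array 1, -0.35 on array 2 and -4.50 on array 3. On these arrays the brighter Lin28b probe had -1.69, 0.55 and -1.15, and the dimmer one 0.0019, 0.65 and 0.15. A relation between Lin28b and these markers was not tested. None of the neural progenitor markers passed by limma, and 4 had an unadjusted p under 0.05. Of the 5 tested trophoblast markers, which summed to 5028 to 16327 units in the mutant, against 4319 to 5207 units in wild type, Cdx2 was called (2.14 ± 0.56, SD, n = 3, adjusted p = 0.0481), and the list's median was 0.02. No tested marker was below background in a genotype on every array. The part of the cell types marked by these lists in the members' ratios was not tested.

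**Figure D5:**
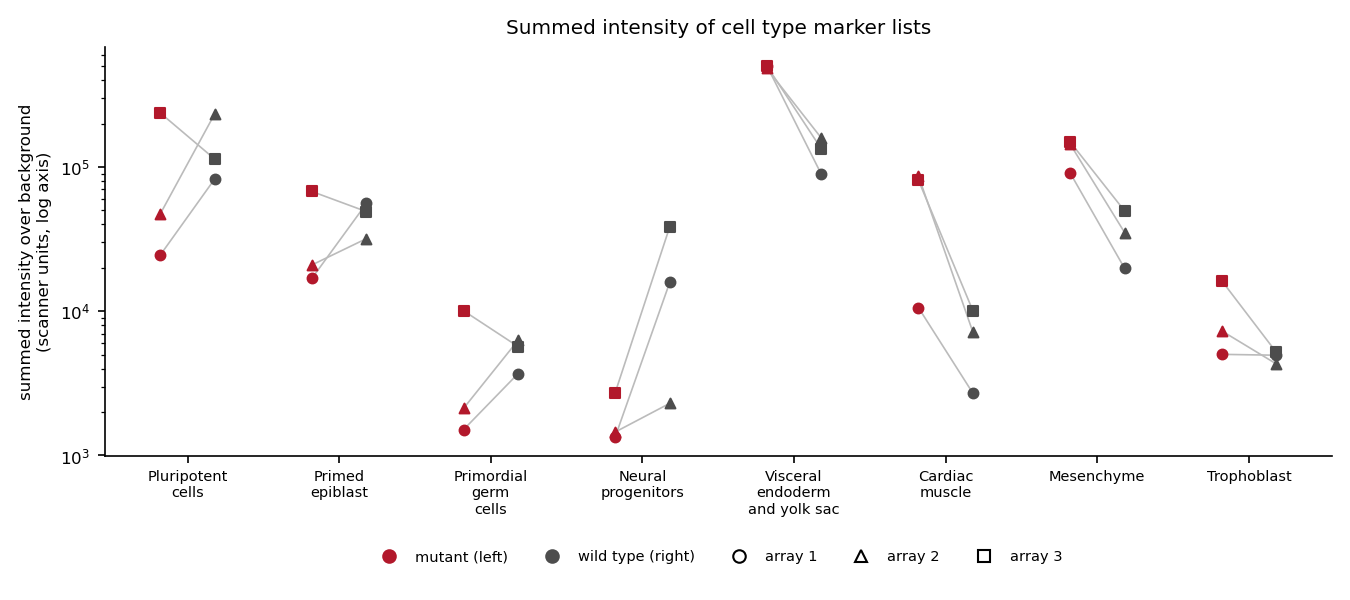
Summed intensity over local background, in scanner units on a log axis, of each cell type marker list, with mutant points (red) left of wild-type points (grey), marker shape for the array and lines joining the 2 RNAs of an array. The mutant is higher on every array for visceral endoderm, cardiac muscle, mesenchyme and trophoblast markers, for trophoblast only slightly on array 1. Pluripotent cell, primed epiblast and primordial germ cell markers change side on array 3. Sums are of intensities before normalization, so bright probes weigh most.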

How the data were processed

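Per the labels' protocols, amplified RNA labelled with Cy3 or Cy5 was hybridised to Agilent mouse 4x44K v2 arrays. The deposited files came from Agilent Feature Extraction 10.7.3.1 and give the intensity of each spot and of its surroundings, per the file headers. They also give a deposited log10 ratio after the software's own background and dye correction. The authors' deposited table holds log2 ratios. The submitters' processing notes name limma, and how the table was otherwise made is not given in the sources used here. Regressed on the scanner's ratios over 10742 bright spots, arrays 1, 2 and 3 had slopes of 0.910, 0.932 and 0.974, as log2 of mutant over wild type, and column medians of -0.02, 0.02 and -0.01; its background step is unknown.

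With limma 3.58.1 in R 4.3.3, mean spot and median background intensities (the background limited to 100 units, which touched 25 spots of array 2, up to 75739 units) went through normexp at an offset of 50, then loess within arrays in which control spots had weight 0. Outlier spots were left out. A probe was kept when measured on all 3 arrays and well above background on all of them in 1 or both genotypes (25494 of 39429), and the brightest stood for its gene. Symbols came from RefSeq (GRCm38.p6) by accession for 27234 probes, symbol for 3576 and synonym for 565, and 8054 kept the name in the file. Spot intensities in the text are as deposited, before correction. Positions are printed as the files give them, on mm9, and an annotation of that build (exon, UTR) was not used here.

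The two-sided test of log2 ratios against 0 used lmFit and eBayes, with p-values adjusted by Benjamini-Hochberg and a threshold of 0.05. The number of arrays limits the precision. On simulated data with 19665 genes, sets of 100 genes were given log2 changes of 1 and 2 and had mean estimates of 1.03 and 2.05. An unadjusted p under 0.05 was found for 81% and 99% of them, and 0 and 0 passed after adjustment. Passing after adjustment depends on how many genes change, and only these sets were changed. In the real data limma gave 3910 genes an unadjusted p under 0.05 and called 325. The simulation therefore does not give the share of real changes that pass. Whether replicates were separate cultures or lines is given only as biological replicates, so p-values measure the spread between these samples.

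The members, the lists, the background limit and the tests were chosen with earlier results of these data known. Named genes are the members, the 5 genes nearest to Trim71 and 3 nearest to each other member, from each pathway list the called genes (otherwise up to 3 with the smallest p), Dido1, and up to 2 markers a list. Igf2, Btrc, Mapk4 and Ccnd1 were named after their values were seen, and the value of 1 listed gene is not reported here. Alternatives were other background, normalization, filter, probe and dye settings, the scanner's and the authors' ratios, and leaving out each replicate.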

Additional observations from a re-analysis of the deposited data

How the results depend on the processing

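The direction of the mean of Trim71, Igf2bp1, Hmga2, Lin28a, Igf2bp3 and Lin28b was the same under all 13 alternatives run for each. Some alternatives could not move a member, such as the mean of a gene's probes for a gene with 1 probe. For Lin28b the direction is that of its brighter probe or of both probes averaged. Its brighter probe was above 0 on array 2, and its dimmer probe had a mean of 0.27. The mean log2 ratio ranged from 2.72 to 2.99 for Trim71, from 1.63 to 2.01 for Igf2bp1, from 0.60 to 1.76 for Hmga2, from 0.50 to 1.15 for Lin28a, from 0.095 to 0.62 for Igf2bp3 and from -1.42 to -0.25 for Lin28b; that of Igf2bp2 ranged from -0.087, without replicate 1, to 0.67. The counts over all genes moved more. Limma called 325 genes, against 733 with an offset of 16, 769 with the scanner's log ratio and 2534 with a dye term. It called 0 with the local background not limited (3021 at an unadjusted p under 0.05), 0 with the authors' values (3838) and 0 with no filter (4857). Leaving out a replicate gave 0 to 5082 calls: 0 without replicate 1 (1659 unadjusted) or 3 (2370), and 5082 without replicate 2. Of the pathway genes 3 were called, against 0 with the background not limited (10 unadjusted), 0 with the authors' values (12), 0 with no filter (15) and 6 with a dye term, and 0 to 21 when a replicate was left out, with 0 without replicate 1 (6 unadjusted) or 3 (8) and 21 without replicate 2. Genes at least 2-fold changed one way on every array were 822, against 316 with the background not limited, 513 with the authors' values and 1587 with the scanner's log ratio, and 953 to 2335 with a replicate left out (2335 without replicate 2 and 1279 without replicate 3). Fewer arrays meet that rule more easily by construction; the cause of the other shifts was not tested. Keeping outlier spots, an alternative added after seeing the data, gave 327 calls. The test of ratios is already paired within each array, and no further replicate block could be fitted. On array 2 the dimmer probes of Hmga2, Trim71 and Lin28b had log2 ratios of 3.51, 2.15 and 0.65, and 1.63, 0.49 and 0.06 with the background not limited.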
